A study of Rattus norvegicus with 4 samples.

Results

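Integrins and the proteins of focal adhesions, the sites where integrins couple the extracellular matrix to actin, were followed in cultured heart muscle cells. The members were the genes with an annotated open reading frame (ORF) whose name begins with Itga or Itgb, together with a fixed set of adhesion proteins running from talin to Nedd9. Where a gene had several annotated ORFs, the one with the most summed counts was used. This gave 43 genes of the 13694 with an annotated ORF. They comprised 15 integrin α chains, 6 integrin β chains, 4 genes that share the name pattern without encoding an integrin chain (Itgb1bp1, Itgb1bp2, Itgb3bp and Itgbl1) and 18 adhesion proteins. Tln2 was also in the rule but had no annotated ORF and was not analysed here.

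The cells were ventricular cardiomyocytes of Sprague-Dawley rats at postnatal day 2, pre-plated to remove other cells and cultured with fetal bovine serum. Of the 4 libraries, 2 came from cells given phenylephrine (PE, an α1-adrenergic agonist and growth stimulus of cardiomyocytes) for 24 h at 20 µM; the other 2 were untreated controls. Ribosome footprints, the RNA fragments protected by translating ribosomes, were counted per ORF, so a value depends on the amount of an mRNA as well as on the ribosomes it carries. The PE libraries held 12117629 and 12537740 counts and the control libraries 11446574 and 13827599. The labels do not say whether replicates came from separate cultures, so p-values speak only of the spread among these 4 libraries, which may be technical. All 8 listed cardiomyocyte markers were detected in every library, with a summed level of 54514 to 54821 CPM (counts scaled to library size) in PE and 58748 to 58917 CPM in control. Most of this sum was Myh7, with 30689 and 30860 CPM in PE and 32016 and 32100 CPM in control. The largest fall was that of Myh6, with 2614 and 2689 CPM in PE and 6562 and 6610 CPM in control. The culture also held fibroblast genes, at 21066 to 21302 CPM in PE and 34684 to 34953 CPM in control. Col1a2, among the genes summed, had at most 2 counts in a library and added almost nothing.

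An integrin is a pair of an α and a β chain that spans the membrane. The α chain largely sets which matrix protein is bound. The tail of the β chain recruits talin and kindlin, which switch the receptor on, and a complex of integrin-linked kinase, PINCH and parvin. Vinculin, tensin and zyxin join this core to actin filaments, and focal adhesion kinase with its scaffolds passes the signal on. In cardiomyocytes these assemblies sit at costameres, beside the Z-discs, and carry force between the sarcomeres and the basement membrane.

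After PE, footprints rose on the main β chain, Itgb1, and on a set of α chains led in level by Itga1 and Itgav. They fell on the leukocyte chain Itgb2 and its partners Itgad and Itgax, on Itga4 and Itga8, and on Itgbl1. Itga11 and Itgal, a further partner of Itgb2, were lower in edgeR but did not pass in DESeq2. Behind the receptor, integrin-linked kinase, β-parvin, p130Cas and zyxin were higher, and vinculin and both tensins were lower. Of these, only vinculin and the tensin Tns1 did not pass a test against a 1.2-fold change. Of the 43 members, 40 passed the filter on low counts. Of these, 18 were higher, 12 lower and 10 not called in the quasi-likelihood test of edgeR, with p-values adjusted by Benjamini-Hochberg over all 12609 ORFs tested and a threshold of 0.05. Among all tested ORFs 42.7% were called, 21.4% higher and 21.3% lower, and of the 11286 genes with a tested annotated ORF 45.2%. The share was 75% of the tested members, but the members were also more deeply counted, with a median of 1099 counts per library against 262 for all tested genes. The groups did not overlap in 35 of the 40, against 68.6% of all tested ORFs. The median log2 fold change was 0.13 in the members and 0.00 in all tested ORFs, and the median size of change was 0.42 and 0.26.

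**Figure D1:**
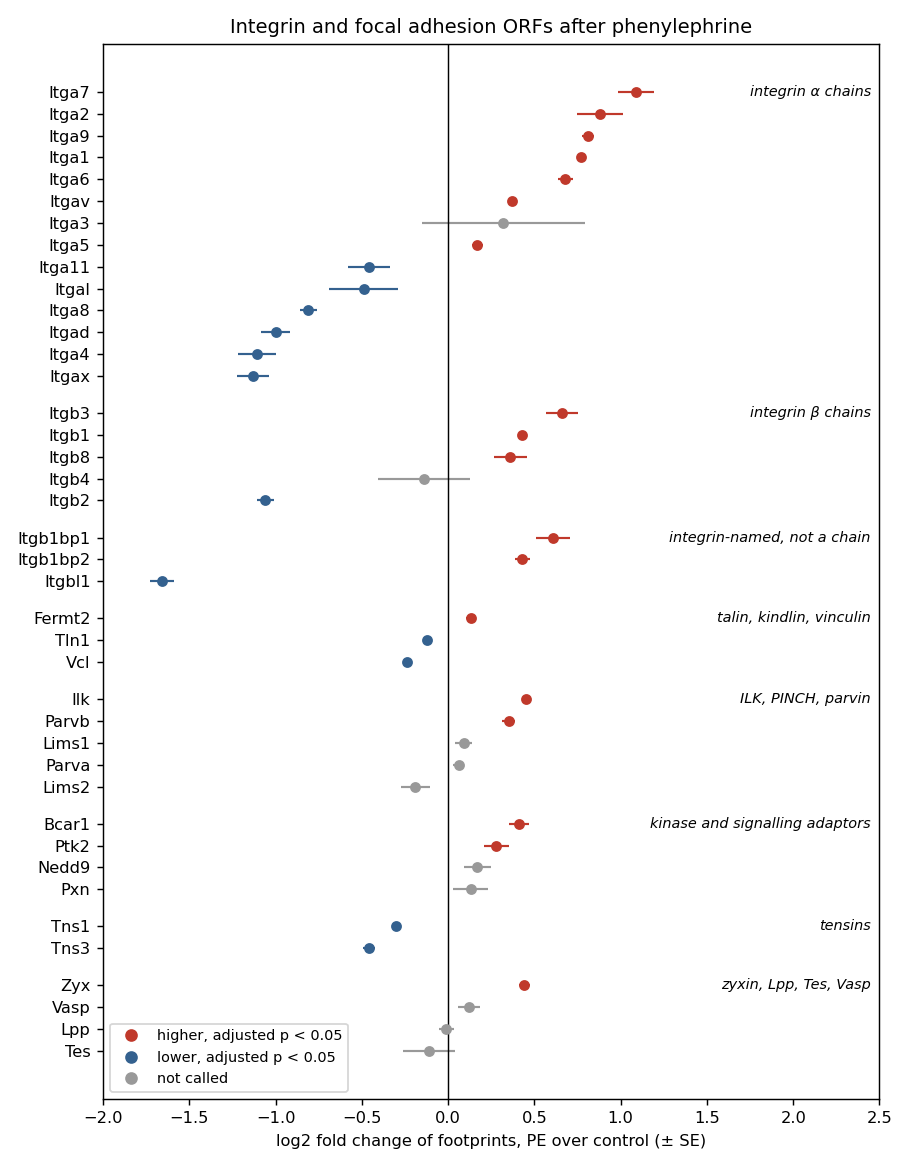
Log2 fold change of footprints, PE over control, with its standard error from edgeR, for the 40 tested members, ordered by role and then by size (n = 2 libraries a group). Red points are higher and blue points lower at an adjusted p under 0.05. The α chains run from 1.09 (Itga7) to -1.13 (Itgax), while the adhesion proteins without an integrin name lie between 0.45 (Ilk) and -0.46 (Tns3).

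Itgb1, the β chain that pairs with most α chains of muscle and connective tissue (Rnor_6.0 chromosome 19, 61697092 to 61724444), had 4262 and 4280 CPM in PE and 3220 and 3127 CPM in control. Both PE libraries lay above both control libraries. The rise was 1.35-fold, with a log2 fold change of 0.43 ± 0.01 (SE) and an adjusted p = 7.4e-22 by edgeR. Itgb1 stood far above the other members: per kilobase of ORF it averaged 1784 CPM in PE and 1326 CPM in control, and the next highest were Ilk with 422 CPM per kilobase in PE and Vcl with 420 in control. Itgb1 made up 96.1% and 96.2% of the level per kilobase summed over the 6 β chain members in PE and 92.9% and 92.2% in control.

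The other β chains were far less abundant. Itgb3, the partner of αv and αIIb that binds fibronectin and vitronectin, had 35.1 and 38.2 CPM in PE and 23.1 and 23.2 CPM in control, a rise of 0.66 ± 0.09 on the log2 scale. Itgb8, an αv partner known for activating latent TGF-β, had 33.7 and 31.3 CPM in PE and 26.4 and 24.2 CPM in control, a rise of 0.36 ± 0.09. In both genes the PE libraries were the higher ones without overlap. Itgb4, the α6 partner of hemidesmosomes, had 2.67 and 4.30 CPM in PE and 4.04 and 3.71 CPM in control, with a log2 fold change of -0.14 ± 0.27 that did not pass, and Itgb6, an epithelial αv partner, had a mean of 7.75 counts per library and was not tested. Itgb5, another αv partner, is classed in the deposited annotation as an unannotated ORF and so is no member. Its 2397-nt ORF had 138 and 140 CPM in PE and 114 and 109 CPM in control, a rise of 0.32 ± 0.05. Per kilobase Itgb5 averaged 57.9 CPM in PE and 46.5 CPM in control, and with it in the sum the share of Itgb1 was 93.2% in both PE libraries and 89.9% and 89.3% in control.

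The collagen receptors changed in both directions. Itga1, which pairs with β1 to bind collagens, basement membrane collagen IV among them (chromosome 2, 47127418 to 47280992), had 1263 and 1269 CPM in PE and 748 and 740 CPM in control. This 1.70-fold rise, a log2 fold change of 0.77 ± 0.02, had an adjusted p = 7.3e-26 by edgeR, and each PE library was above each control library. Itga2, a second collagen receptor whose ORF lies beside it at 47000521 to 47096839, had 17.9 and 17.1 CPM in PE and 9.90 and 9.19 CPM in control, a rise of 0.88 ± 0.13. Itga11, a fibrillar collagen receptor typical of fibroblasts, went the other way, with 13.1 and 13.3 CPM in PE and 18.6 and 17.7 CPM in control. Its log2 fold change of -0.46 ± 0.12 passed in edgeR with an adjusted p = 0.0028, but not in DESeq2, with an adjusted p = 0.062. On the log2 scale Itga11 stood at -6.43 and -6.42 relative to Itga1 per kilobase in PE and at -5.17 and -5.23 in control. The 2 proteins share 43.3% of aligned residues. In 2 against 2 libraries an exact permutation test cannot give a two-sided p under 0.333, so no p is given for such ratios.

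Among the laminin receptors Itga6, an α chain with β1 or β4 as partner, had 178 and 174 CPM in PE and 106 and 113 CPM in control, a rise of 0.68 ± 0.04 on the log2 scale. Itga7, the laminin receptor of striated muscle (chromosome 7, 3355302 to 3383450), had 32.7 and 37.3 CPM in PE and 16.4 CPM in both control libraries. On the ORF used, the 2.13-fold rise, 1.09 ± 0.10 on the log2 scale with an adjusted p = 1.9e-10 by edgeR, was the largest among the tested α chains. Both PE libraries lay clear of the control libraries. The deposited counts hold only 0.0720 counts per P-site for this ORF, a P-site being the position of the ribosome's peptidyl site that the annotation tallies over all libraries together, where the median over all listed ORFs was 1.12. The change is thus read from a minor share of the ribosomes on this ORF. A second annotated ORF of Itga7, of 3480 nt, did not show it, with 27 and 46 counts in PE and 32 and 34 in control. Itga3 had 0.00868 counts per P-site and a log2 fold change of 0.32 ± 0.47 that did not pass, so its response cannot be read from these counts.

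The receptors for the RGD sequence of fibronectin, vitronectin and related ligands were led by Itgav (chromosome 3, 71114100 to 71202411), with 875 and 871 CPM in PE and 677 and 676 CPM in control. That is a 1.29-fold rise, with a log2 fold change of 0.37 ± 0.02 and no overlap between groups. Itga5, the α chain of the classical fibronectin receptor, had 354 and 350 CPM in PE and 323 and 305 CPM in control, a smaller rise of 0.17 ± 0.03, or 0.28 once a trend of fold change with ORF length was removed. That trend was of like size for every tested α chain, at -0.10 to -0.12 on the log2 scale. Itga8, a receptor for nephronectin and fibronectin found on mesenchymal cells, fell to 82.6 and 80.1 CPM in PE, against 143 and 142 CPM in control. Its log2 fold change was -0.81 ± 0.05. Itga2b, the platelet chain, had 5 counts in each PE library and 15 and 11 in control and was not tested.

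The closely related α4 and α9 chains differed in direction. Itga9, which binds tenascin-C, osteopontin and the spliced EIIIA segment of fibronectin, had 273 and 265 CPM in PE and 154 and 153 CPM in control, a rise of 0.81 ± 0.04 on the log2 scale (adjusted p = 5.5e-19 by edgeR). Itga4, the receptor for VCAM-1 and another part of fibronectin, fell to 12.7 and 13.6 CPM in PE, against 28.5 and 28.6 CPM in control. Its log2 fold change was -1.11 ± 0.11, with an adjusted p = 4.7e-10. Neither gene's groups overlapped. The difference between the 2 genes was not tested.

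Scaled to ORF length, the order of the α chains differed between the groups at its head. In PE, Itga1 led with 358 ± 1.13 CPM per kilobase, ahead of Itgav at 278 ± 0.883, Itga5 at 107 ± 0.934, Itga9 at 86.6 ± 1.90, Itga6 at 54.6 ± 0.909 and Itga8 at 25.5 ± 0.547 (SD, n = 2). In control, Itgav at 215 ± 0.219 was just above Itga1 at 210 ± 1.5, followed by Itga5 at 95.2 ± 3.86, Itga9 at 49.4 ± 0.147, Itga8 at 44.8 ± 0.312 and Itga6 at 34.0 ± 1.52. Itga8 thus stood above Itga6 in control and below it in PE. Itga1 took 37.6% and 37.9% of the summed α chain level in PE and 30.0% of it in both control libraries, and Itgav 29.3% in both PE libraries and 30.6% and 30.8% in control. The sum over the 15 α chains was 948 ± 2.56 CPM per kilobase in PE and 701 ± 4.70 in control, a ratio of 1.35. The 6 β chains summed to 1855 ± 5.32 in PE and 1433 ± 21.9 in control, a ratio of 1.29. These sums leave out most footprints of Itga3 and Itga7. Itgad is also undercounted, at 0.415 counts per P-site against a median of 1.19 in members with 1 annotated ORF. By P-sites per kilobase, pooled over all libraries, Itga7 had 5184, behind Itga1 with 11531 and Itgav with 9997 and ahead of Itga5 with 4275. Itga3 had 2051, above Itga6 with 1825, and Itgad had 1322, near Itga8 with 1411.

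**Figure D2:**
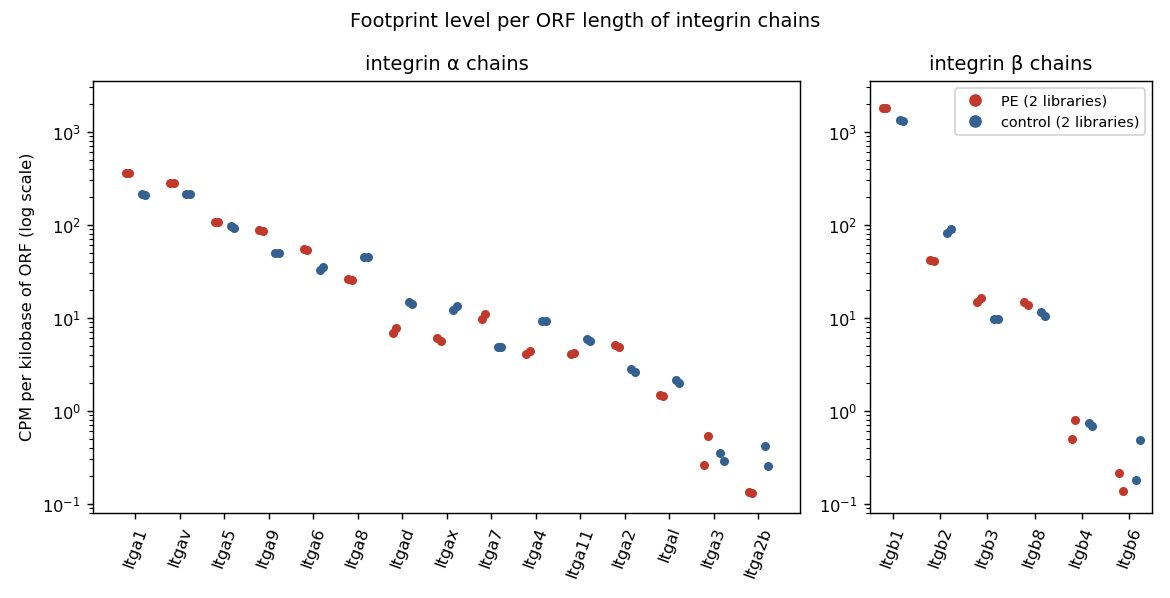
Footprint level per kilobase of ORF in each library, on a log axis, for the 15 α chains (left) and 6 β chains (right), with the 2 PE libraries in red to the left of the 2 control libraries in blue. Itga1, Itgav, Itga9, Itga6 and Itgb1 lie higher in PE without overlap, and Itga8, Itgad, Itgax, Itga4 and Itgb2 lower. Counts of Itga7, Itga3 and Itgad are low against their P-sites.

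The β2 integrins of leukocytes were lower as a group, in all 4 of their chains listed. Itgb2, the common β chain (chromosome 20, 11778374 to 11800129), fell to 95.2 and 93.7 CPM in PE, against 187 and 207 CPM in control, a log2 fold change of -1.06 ± 0.05 with an adjusted p = 9.7e-19 by edgeR. Itgax, the αX chain of macrophages and dendritic cells, fell to 21.4 and 19.8 CPM in PE, against 42.7 and 47.5 CPM in control. Itgad, the αD chain of macrophages, had 23.7 and 26.5 CPM in PE and 51.5 and 48.8 CPM in control. No library of PE reached a control library in these genes, and the log2 fold changes of the α chains were -1.13 ± 0.09 for Itgax and -1.0 ± 0.08 for Itgad, whose ORF had 0.415 counts per P-site. Itgal, the αL chain of lymphocytes and monocytes, had 5.18 and 5.03 CPM in PE and 7.49 and 6.91 CPM in control. Its adjusted p of 0.044 by edgeR became 0.11 without PE replicate 1, 0.15 without PE replicate 2, 0.15 without control replicate 1 and 0.077 without control replicate 2, and 0.26 in DESeq2.

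Markers of macrophages and other leukocytes moved with these chains. Of 9 such markers, 7 were lower and 0 higher by the same test, where 21.3% of all tested ORFs were lower. Their summed level was 323 and 324 CPM in PE and 492 and 480 CPM in control, and none was at 0. The pan-leukocyte phosphatase Ptprc had a log2 fold change of -0.95 ± 0.07 and the macrophage receptor Csf1r -0.93 ± 0.10, while Cd14, the endotoxin co-receptor, had -0.04 ± 0.06 and did not pass. In a bulk lysate, fewer cells of a type and less RNA per cell cannot be told apart, and the part of leukocyte number in the fall of the β2 integrins was not tested.

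**Figure D3:**
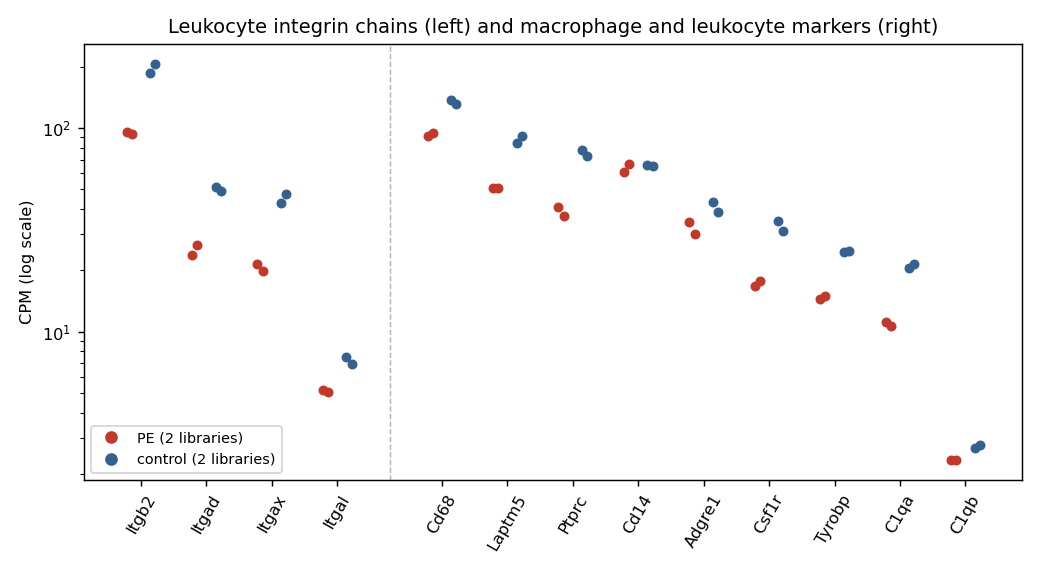
CPM in each library, on a log axis, of the 4 β2 integrin chains (left of the dashed line) and 9 macrophage and leukocyte markers (right), with PE in red to the left of control in blue. Itgb2 lies at 95.2 and 93.7 CPM in PE and at 187 and 207 CPM in control, and all markers but Cd14 and C1qb were called lower in PE.

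Fibroblast markers were mostly lower as well, with 6 of 9 tested lower and 1, the proteoglycan Dcn, higher, at a median log2 fold change of -0.29. One further marker, Col1a2, had 0 to 2 counts per library but 158850 P-sites, so its level cannot be read from these counts. Itga8, Itga11 and Itga4 fell beside the fibroblast list and beside the leukocyte list, which had a median of -0.75. The part of either list in them was not tested. Of 7 endothelial markers, 4 were lower and 1 higher, with a summed level of 134 and 139 CPM in PE and 232 and 223 CPM in control. Of 7 smooth muscle and pericyte markers 5 were lower and 2, Des and Cnn1, higher. The summed level of these 7 was 5913 and 6005 CPM in PE and 4276 and 4319 CPM in control. Des alone had 4083 and 4162 CPM in PE and 2165 and 2174 CPM in control, so the higher sum in PE follows Des. Of the 2 platelet genes listed Pf4 was lower, and Gp1bb had 0 counts beside 127 P-sites. Of the 8 cardiomyocyte markers, 6 were lower and 2 higher, with a median of -0.13. Among them Myh6 had only 0.19 counts per P-site and Myh7 0.664, so their summed level is read from incomplete counts.

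The 4 genes that match the integrin name pattern without encoding a chain have different roles. Itgbl1, a secreted protein with repeats like those of β chains (chromosome 15, 110114240 to 110378258), had 29.5 and 28.8 CPM in PE and 90.0 and 94.3 CPM in control. It was 3.16-fold lower, with a log2 fold change of -1.66 ± 0.07, the largest change among the members tested, with an adjusted p = 7.5e-20 by edgeR. Itgb1bp2, known as melusin, is a muscle-restricted protein that binds the β1 tail and is known from mouse hearts as a sensor of mechanical load (chromosome X, 71342828 to 71347446). It had 178 and 186 CPM in PE and 139 and 131 CPM in control, a rise of 0.43 ± 0.04. Itgb1bp1, called ICAP-1, which binds the same tail and competes with talin, had 30.6 and 31.6 CPM in PE and 20.4 and 20.3 CPM in control, a rise of 0.61 ± 0.10. In all 3 the groups stood apart. Itgb3bp, a centromere protein, had a mean of 8.75 counts per library and was not tested.

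The proteins that activate and load the receptor changed little. Tln1, the talin that links β tails to actin (chromosome 5, 59034076 to 59057718), had 1411 and 1449 CPM in PE and 1559 and 1544 CPM in control, a log2 fold change of -0.12 ± 0.02 that passed with an adjusted p = 1.2e-06 by edgeR. Its ORF is the longest of the members at 7623 nt, and when a trend of fold change with length was taken out its value turned to 0.13, so no direction is given for it. Vcl, vinculin, which reinforces talin under tension, had 1138 and 1136 CPM in PE and 1356 and 1328 CPM in control, a log2 fold change of -0.24 ± 0.02, or -0.13 with the length trend taken out. Fermt2, kindlin-2, the co-activator that binds beside talin, had 374 and 385 CPM in PE and 350 and 343 CPM in control, a rise of 0.13 ± 0.03. None of these 3 passed a test against a 1.2-fold change.

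Differences between members were not tested within the complex of integrin-linked kinase, PINCH and parvin, where 2 were called higher and 3 were not called. Ilk, the pseudokinase at its centre (chromosome 1, 170579387 to 170584928), had 566 and 579 CPM in PE and 420 and 418 CPM in control, a 1.37-fold rise with a log2 fold change of 0.45 ± 0.02 and an adjusted p = 1.1e-16 by edgeR. Parvb, β-parvin, which is enriched in striated muscle, had 226 CPM in both PE libraries and 175 and 179 CPM in control, a rise of 0.35 ± 0.04. Both genes had their PE libraries on top. Parva, the paralog α-parvin with 72.6% identity to Parvb, had 328 and 322 CPM in PE and 301 and 320 CPM in control, with a log2 fold change of 0.06 ± 0.03 that did not pass (adjusted p = 0.10 in edgeR). Parva passed at 0.11 without control replicate 2, with an adjusted p = 0.017. The log2 ratio of Parvb to Parva per kilobase was -0.51 and -0.48 in PE and -0.75 and -0.81 in control. Lims1 and Lims2, the PINCH adaptors, had log2 fold changes of 0.09 ± 0.05 and -0.19 ± 0.08. Neither passed, and Lims2, with 0.279 counts per P-site, did pass when scaled by library totals (adjusted p = 0.024) and with the length trend taken out (adjusted p = 0.031).

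Of the kinase and its scaffolds, Bcar1, p130Cas, a scaffold phosphorylated when stretched, had 79.3 and 83.1 CPM in PE and 61.8 and 60.6 CPM in control, a rise of 0.41 ± 0.06 (adjusted p = 8.3e-07 in edgeR). Ptk2, focal adhesion kinase, had 59.3 and 68.5 CPM in PE and 55.5 and 50.2 CPM in control. Its rise of 0.28 ± 0.07 lost its call without PE replicate 2 (adjusted p = 0.097) or control replicate 2 (adjusted p = 0.051). Nedd9, a relative of Bcar1, had 51.4 and 45.4 CPM in PE and 42.3 and 43.5 CPM in control and did not pass at 0.17 ± 0.08. It passed without PE replicate 2 at 0.26 (adjusted p = 0.016) and with the length trend taken out at 0.25 (adjusted p = 0.0074), and had 0.08 without PE replicate 1 (adjusted p = 0.57). Pxn, paxillin, the docking protein of this group, had 26.9 and 29.0 CPM in PE and 23.6 and 27.4 CPM in control, with overlapping groups and a log2 fold change of 0.13 ± 0.10.

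Both tensins, which bind β tails and actin and mark mature adhesions, were lower. Tns1 had 452 and 471 CPM in PE and 567 and 568 CPM in control, a log2 fold change of -0.30 ± 0.02. Tns3 had 183 and 188 CPM in PE and 253 and 255 CPM in control, a log2 fold change of -0.46 ± 0.03 with an adjusted p = 7.9e-13 by edgeR. The groups did not overlap. Both ORFs are long, at 5727 and 4578 nt, and with the length trend removed the values were -0.10 and -0.29, both still called. Tns1 did not pass the test against a 1.2-fold change (adjusted p = 0.094).

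Among the proteins at the actin end, Zyx, zyxin, a LIM protein that moves to stressed actin filaments, had 324 and 341 CPM in PE and 245 CPM in both control libraries, a rise of 0.44 ± 0.03 (adjusted p = 1.7e-13 in edgeR). Its relative Lpp, with 47.5% identity over aligned residues, had 147 and 144 CPM in PE and 149 and 144 CPM in control, and a log2 fold change of -0.01 ± 0.04. Per kilobase, the log2 ratio of Lpp to Zyx was -1.31 and -1.41 in PE and -0.89 and -0.92 in control. Vasp, which speeds actin assembly, had 0.12 ± 0.06 and Tes, a LIM protein that binds zyxin, -0.11 ± 0.15, and neither passed.

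In-frame P-sites made up a median of 85% of all P-sites over the members, the lowest share being 70.4% on Itgb6. Counts and P-sites went together for most members but not for all. The 5 member genes with several annotated ORFs, Itga3, Itga7, Itgad, Itgb3bp and Lims2, all had under 0.5 counts per P-site. Of the 38 with 1 annotated ORF, 0 did. Across all genes the share under 0.5 was 78.9% of 1214 genes with several annotated ORFs and 13.4% of 12480 genes with 1. For Itga7 the ORF of 3405 nt used here had 1271 counts and 17653 P-sites in all, and a second one of 3480 nt had 139 counts and 16447 P-sites.

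**Figure D4:**
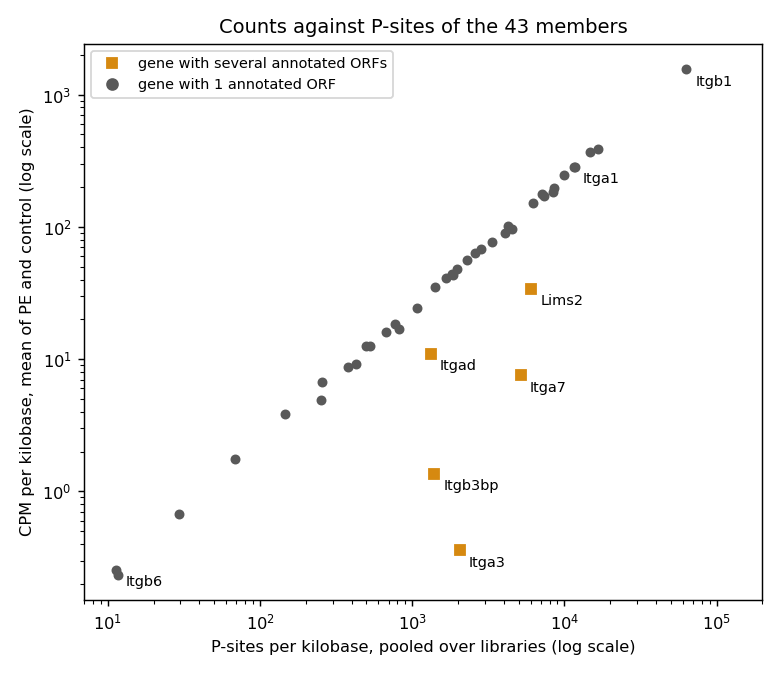
CPM per kilobase (mean of PE and control) against P-sites per kilobase pooled over libraries, both on log axes, for the 43 members. The 38 genes with 1 annotated ORF follow one line, from Itgb6 to Itgb1, and the 5 genes with several (squares) lie below it.

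Upstream ORFs, short frames ahead of the main one, were counted well enough for a test on 3 member genes. The 42-nt upstream ORF of Itga1 had 33 and 49 counts in PE and 21 and 29 in control. Its log2 fold change was 0.79 where the coding ORF had 0.77, a difference of 0.02 ± 0.24 (adjusted p = 0.98 for the interaction in edgeR). For the upstream ORFs of Itgb8 and Itgb1bp1 the differences from the coding ORF were 0.51 ± 0.38 and -0.35 ± 0.33, and neither passed. Over all 802 such pairs 1.75% were called. The SEs of these differences leave changes of either sign possible.

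Other adhesion genes were counted from lists that hold no member. For both lists below, the share called in either direction was 42.7% of all tested ORFs and 45.2% of genes with a tested annotated ORF. The count depth of the lists was not compared with that of all genes. Of 50 tested genes among the adaptors and signalling proteins of adhesions, 22 were higher and 14 lower, with a median log2 fold change of 0.05. Of the 50, 4 had under 0.5 counts per P-site, and 2 further listed genes, Pak2 and Rock1, had 0 counts. Sorbs2, an adaptor of Z-discs and adhesions, rose by 0.92 ± 0.02, the Ena/VASP protein Enah by 1.03 ± 0.03, the actin crosslinker Actn1 by 0.66 ± 0.03 and the co-receptor Sdc4 by 0.62 ± 0.04. The filamins Flna and Flnc, which bind β tails and actin, fell by 0.53 and 0.39, and caveolin Cav1 by 1.08. The filamin ORFs are long, at 7917 and 8079 nt, and with the length trend taken out their log2 fold changes were -0.28 and -0.14, both still called. Of 37 tested matrix ligands of integrins, 15 were higher and 16 lower, with a median of -0.01, and 3 had under 0.5 counts per P-site. Fibronectin (Fn1) rose by 0.79 ± 0.01, the laminin chain Lamc1 by 0.71 ± 0.01 and the matricellular protein Cyr61 by 0.92 ± 0.02. Col3a1 had a log2 fold change of -1.72 ± 0.01, Col6a1 -1.31 ± 0.02, Col6a2 -1.30 ± 0.02 and periostin (Postn), a ligand of αv integrins, -1.06 ± 0.01.

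In the authors' deposited table of their own DESeq2 comparison, 28 of the 43 members were called, 18 higher and 10 lower. Itga11 and Itgal were not called there, with adjusted p = 0.064 and 0.27 by DESeq2. In that table the log2 fold changes of the 40 members tested here differed from those above by at most 0.01.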

How the data were processed

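Footprint libraries of PE-treated and untreated cells were grouped by sample title (2 each). The submitters' processing notes name STAR 2.4.2a, Bowtie 1.1.2, cutadapt 2.0 and the build Rnor_6.0. How ORFs were called and footprints counted is not given in the sources used here. Deposited by the authors were raw counts per ORF for 18847 ORFs, and an annotation with ORF length, pooled P-site counts per frame and, per the file headers, p-values, adjusted p-values and log2 fold changes from their own DESeq2 comparison. Unused per-sample columns numbered 0.

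Counts were filtered with filterByExpr, scaled by TMM (factors 0.982 to 1.02) and analysed in edgeR 4.0.16 (R 4.3.3), using the quasi-likelihood test with robust fitting and no replicate term. CPM uses the TMM-scaled library size. The SE of a log2 fold change is its size over the root of F. A common biological coefficient of variation of 2.18% was fitted, so small changes pass. Replicates were kept as separate samples, since they differed beyond counting error (chi-square per degree of freedom 1.60 in PE and 1.62 in control). Upstream ORFs were compared with the coding ORF as an interaction with library as a term, over pairs with a mean count of at least 10 each. Protein identity is over residues aligned globally (Biopython 1.88) in the deposited ORF translations. Full values are given for members called with groups apart and a mean of at least 20 counts, and up to 4 genes per direction of each pathway list by smallest p, of which 2 are not reported here. Members and lists were chosen with earlier results of these data known. Alternatives were DESeq2 1.42.0, other scalings and filters, left-out libraries, a 1.2-fold null and removal of a loess trend with ORF length.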

Additional observations from a re-analysis of the deposited data

How the results depend on the processing

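Of the 30 called members, 28 were tested under every alternative fit, and of these 19 kept their call and direction in all of them and 24 in all but the test against a 1.2-fold change. The other 2, Itga7 and Itgad, were removed by the limit of 0.5 counts per P-site, under which 17 of 36 members were higher and 11 lower. The test against a 1.2-fold change called 7 members lower and 14 higher, and 1307 higher and 1418 lower over all ORFs; the members it no longer called were Fermt2, Itga5, Itga11, Itgal, Itgb8, Ptk2, Tln1, Tns1 and Vcl. Scaling by library totals called 2334 higher and 3093 lower over all ORFs, and 18 and 13 of the members. DESeq2 called 1724 higher and 1722 lower over all ORFs, and 18 and 10 of the members. Leaving out 1 library at a time did not always call the same members. In these fits the log2 fold change ran from 0.17 to 0.38 for Ptk2 and from 0.08 to 0.26 for Nedd9. For Parva it ran from 0.02 to 0.11 and for Itgal from -0.44 to -0.55. With the length trend removed, 20 members were higher and 11 lower, and Tln1 turned to 0.13. Itgal lost its call there, at -0.37 with an adjusted p = 0.14 by edgeR. With the replicate block, 18 members were higher and 12 lower, with the call unchanged for all 40, and 2726 and 2721 ORFs in all. The replicate numbers share only a number in the labels, and same-numbered deviations from the group means correlated at 0.012 over 8282 ORFs. Taking the ORF with the most P-sites per gene left 39 members tested, with 18 higher and 12 lower. It replaced only the ORF of Itga3, which was not called, so these counts could not change. Depth limits Itga2b, Itgb6 and Itgb3bp, which were not tested, and the upstream ORFs. Counts per P-site limit Itga3, Itga7, Itgad, Itgb3bp and Lims2.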
